A study of Homo sapiens with 2 samples.

Results

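The 9 genes described here encode enzymes that make serine and pass its carbon to folate. They are PHGDH, PSAT1 and PSPH of serine synthesis, SHMT1 and MTHFD1 of the cytosolic folate cycle, and SHMT2, MTHFD2, MTHFD1L and ALDH1L2 of the mitochondrial folate cycle. All 9 were found by symbol among the 13137 genes of the deposited table, 1 row each. The set was chosen by pathway with the tag counts of this same comparison already known, so the differences below are descriptions. Counts by Fisher's and edgeR's exact tests are given once as other ways of counting, and as no evidence on the set. The counts came from 1 library of A549 cells, a human lung adenocarcinoma line, with doxycycline-induced shRNA-SOX2 from the H1TetO promoter, and from 1 library of the same line with a scrambled hairpin, shRNA-Con, from the same promoter. Both lines were polyclonal populations selected with puromycin after lentiviral infection, and both were kept for 4 days in doxycycline, so neither library is free of hairpin or drug. Of the columns of values, SC was taken to stand for shRNA-Con by its initials, which leaves S1 for shRNA-SOX2.

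Serine synthesis branches from glycolysis. PHGDH oxidizes 3-phosphoglycerate, PSAT1 transfers an amino group from glutamate, and PSPH removes the phosphate to release serine. Serine hydroxymethyltransferases then move a carbon of serine onto tetrahydrofolate and leave glycine, SHMT1 in the cytosol and SHMT2 in mitochondria. In mitochondria MTHFD2 and MTHFD1L carry that carbon on to formate, which leaves the organelle, and ALDH1L2 instead burns it to CO2 with a gain of NADPH. In the cytosol the single protein MTHFD1 takes up formate and feeds purine, thymidylate and methionine synthesis. The transcription factors ATF4, MYC and NRF2 are known to raise several of these genes, and A549 cells carry a KEAP1 mutation that keeps NRF2 active.

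Gene tags came to 2304184 in shRNA-Con and to 2093816 in the library labelled shRNA-SOX2. With 1 library per condition no spread between cultures can be measured, and every interval below is a 95% exact interval (Clopper-Pearson for fold changes and shares, the conditional odds ratio for ratios between genes, Poisson for single counts) that covers counting error only. The targeted gene, SOX2, had 16 tags in shRNA-Con against 23 in the other library, a ratio of 1.58 (0.80 to 3.20). Its tags were thus not lower there, with counting error reaching down only to 0.80, and they do not bear out the label of that library. The study's own check of the silencing was made on protein and is not analysed here. Of 5 epithelial markers KRT8 and KRT18 had between 7702 and 12729 tags in each library, CDH1 had 50 in each, KRT19 had 35 and 127, and EPCAM had 8 and 4. Of 3 markers of other cell types in the table PTPRC (leukocytes) and PECAM1 (endothelium) had at most 3 tags in either library, and COL1A1 (fibroblasts) had 44 and 43. A fold change is the ratio of tags after division by the gene tags of each library, with a count below 3 set to 3. Its median on the log2 scale was -0.13 for the 6237 genes that reached 100 tags when both libraries were added. Scaling by the clean tags of the whole libraries instead lowers every gene by 0.11 on the log2 scale.

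The 9 enzymes did not move as a block. PHGDH, PSAT1, MTHFD2 and ALDH1L2 had between 3.07 and 15.4 times fewer tags, after scaling, in the library labelled shRNA-SOX2, whereas PSPH, SHMT1, SHMT2 and MTHFD1 stayed within 1.5-fold and MTHFD1L lay just past it. Of the 9, 7 reached 100 tags when both libraries were added. Of these 7, 3 (PHGDH, PSAT1 and MTHFD2) were at least 1.5-fold lower, where 25.4% of all genes with that many tags were, and 0 were at least 1.5-fold higher, where 17.2% were. The same 3 were at least 2-fold lower, beside 11.4% of all genes. With a minimum of 20 tags all 9 were counted and 5 were at least 1.5-fold lower, beside 26.6%. By Fisher's exact test at the study's FDR of 0.001, 4 of the 9 were lower (PHGDH, PSAT1, MTHFD2 and ALDH1L2), beside 12.2% of all genes in the table, a test that compares these libraries and not the conditions. By edgeR's exact test at the same FDR, with a spread between cultures that was assumed and not measured (a coefficient of variation of 0.2), 3 were lower (PHGDH, MTHFD2 and ALDH1L2), beside 0.312% of all genes. PSAT1 is thus among the 3 of 7 by its fold and not among the 3 under that assumed spread. The shares beside both tests are over all 13137 genes, of which 6900 had fewer than 100 tags, against 2 of the 9 enzymes. They are therefore not matched to the depth of the enzymes. Because the members were picked with this comparison known, these shares describe the set and support nothing further. In RNA from whole cultures, fewer cells that express a gene and less RNA per cell cannot be told apart.

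**Figure D1:**
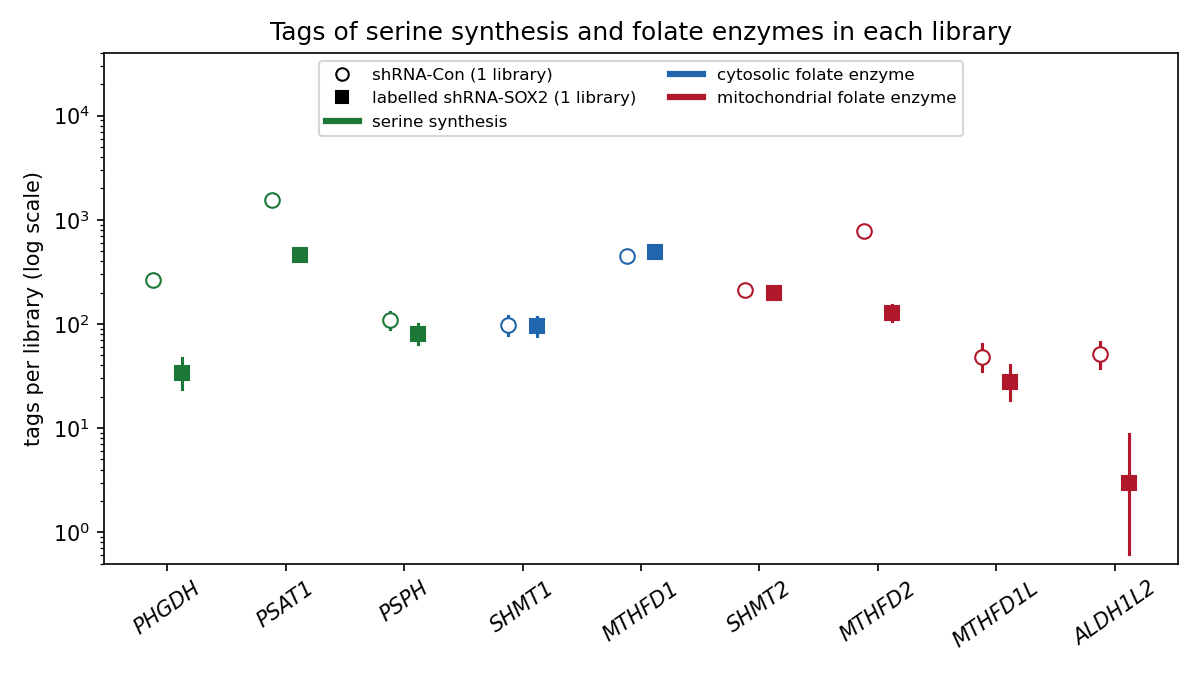
Tags of the 9 enzymes in the shRNA-Con library (open circles) and the library labelled shRNA-SOX2 (filled squares), on a log scale; colours mark the part of the pathway and bars are 95% Poisson intervals from counting error. The bars of the libraries lie apart for PHGDH, PSAT1, MTHFD2 and ALDH1L2, which has 51 and 3 tags, and overlap for the other 5.

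To set sequence beside these values, the window from 250 bases before to 50 bases after the annotated start was taken from RefSeq (GRCh38.p14) for the 6 members that matched. PSPH, SHMT2 and ALDH1L2 were not matched. The windows were searched on both strands for TGATGNAA, the composite element bound by ATF4, for CACGTG, the E-box bound by MYC, and for TGACNNNGC, the core of the element bound by NRF2. Of all 35116 windows in the table, 3.62%, 7.26% and 13.3% hold them in that order. In the sequences printed below, which are those of the lower genes and of their MTHFD1L and MTHFD1 counterparts, capitals mark a match of any of the 3. No matches overlapped. The files count tags per gene and hold no reading of these windows.

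PHGDH (Entrez Gene ID 26227), the first enzyme of serine synthesis and its entry point from glycolysis, had 266 tags in shRNA-Con against 34 in the library labelled shRNA-SOX2. It was 7.11-fold lower (interval 4.96 to 10.5), a log2 fold change of -2.83. Of the 6237 genes with at least 100 tags, 9 had a log2 fold change this low or lower, PHGDH included. In GENCODE release 29 of GRCh38 the gene lies on the plus strand at chr1:119648411-119744226, and no exon of a gene on the other strand overlaps its exons. PSAT1 (29968), the aminotransferase of the next step, had 1565 and 463 tags and was 3.07-fold lower (2.77 to 3.41; log2 fold change -1.62), with 174 genes as low or lower. It lies on the plus strand at chr9:78297143-78330093. The annotation names 4 PSAT1 pseudogenes, and how tags shared with such copies were counted is not given in the sources used here. The windows at both starts, on the plus strand at chr1:119711684-119711983 for PHGDH and chr9:78296875-78297174 for PSAT1, are shown because these genes were lower together. The PHGDH window lies inside the longer GENCODE gene. Neither holds any of the 3 motifs.
PHGDH: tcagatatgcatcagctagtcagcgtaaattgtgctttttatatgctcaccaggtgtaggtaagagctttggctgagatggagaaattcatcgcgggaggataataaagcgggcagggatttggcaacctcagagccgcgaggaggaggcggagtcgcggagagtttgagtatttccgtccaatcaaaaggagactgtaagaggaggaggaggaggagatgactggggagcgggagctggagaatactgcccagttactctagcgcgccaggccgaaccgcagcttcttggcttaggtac
PSAT1: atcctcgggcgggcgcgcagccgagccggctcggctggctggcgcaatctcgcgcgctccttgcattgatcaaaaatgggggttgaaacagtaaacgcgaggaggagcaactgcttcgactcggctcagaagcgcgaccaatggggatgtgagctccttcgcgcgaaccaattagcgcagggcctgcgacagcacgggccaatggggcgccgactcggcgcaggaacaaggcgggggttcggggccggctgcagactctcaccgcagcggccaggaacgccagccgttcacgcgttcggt

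PSPH (5723), which completes serine, had 109 tags in shRNA-Con against 81 in the library labelled shRNA-SOX2. Its ratio, 0.818, had an interval of 0.606 to 1.10, so a difference was not detectable at this depth. The pathway was therefore uneven along its own length, and this can be read without any scaling of the libraries. Tags of PHGDH per tag of PSPH went from 2.44 in shRNA-Con to 0.420, a 5.81-fold drop (3.60 to 9.48), and those of PSAT1 per tag of PSPH from 14.4 to 5.72, a 2.51-fold drop (1.82 to 3.44). Between both lower enzymes, PHGDH per tag of PSAT1 went from 0.170 to 0.0734, so PHGDH was lower by 2.31-fold more (1.59 to 3.46). PSPH made up 5.62% (4.64% to 6.74%) of the tags of the 3 genes in shRNA-Con against 14.0% (11.3% to 17.1%) in the other library. The yield of tags per mRNA of each gene is not given in the sources used here. These ratios therefore say how the balance differed between libraries and not which enzyme has more mRNA. PSPH lies on the minus strand at chr7:56011051-56051604 and has 1 named pseudogene, PSPHP1. In all, the 3 genes had 1940 tags in shRNA-Con against 578 in the library labelled shRNA-SOX2, 3.05-fold fewer after scaling (2.78 to 3.35).

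**Figure D2:**
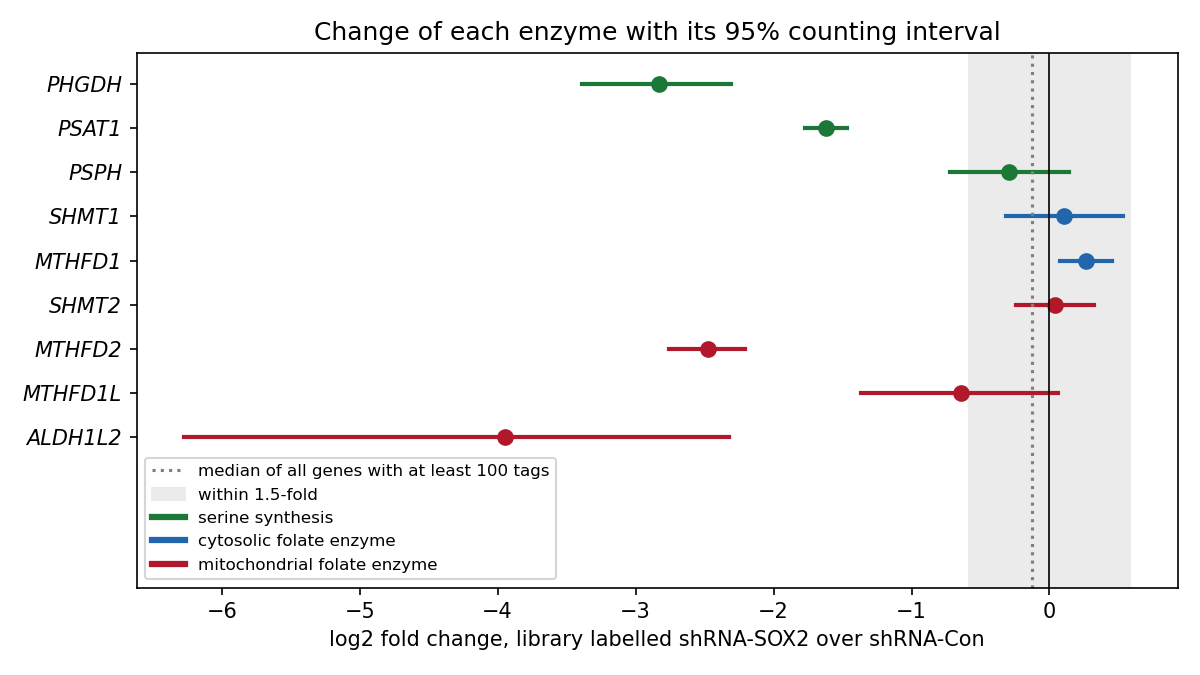
Log2 fold change of each enzyme (points) with its 95% interval from counting error (bars); the grey band is within 1.5-fold, and the dotted line is the median of all genes with at least 100 tags, -0.13. PHGDH, PSAT1, MTHFD2 and ALDH1L2 have intervals wholly below the band, while those of PSPH and MTHFD1L reach into it and past 0, and those of SHMT1, MTHFD1 and SHMT2 lie inside it.

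The mitochondrial enzymes split as well. MTHFD2 (10797), the dehydrogenase and cyclohydrolase of the mitochondrial cycle, had 778 tags in shRNA-Con against 127 in the library labelled shRNA-SOX2. It was 5.57-fold lower (4.61 to 6.77; log2 fold change -2.48), and 23 of the 6237 genes were as low or lower. SHMT2 (6472), which supplies MTHFD2 with its substrate, had 213 and 199 tags. Its ratio of 1.03 (0.843 to 1.25) left no difference detectable at this depth. Tags of MTHFD2 per tag of SHMT2 thus went from 3.65 to 0.638, a 5.72-fold drop (4.33 to 7.56).

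ALDH1L2 (160428), the mitochondrial formyltetrahydrofolate dehydrogenase, had 51 tags in shRNA-Con against 3 in the library labelled shRNA-SOX2. The ratio was 0.0647 with a wide interval, 0.0129 to 0.20, since it rests on 3 tags. Of the 10045 genes with at least 20 tags, 4 had a log2 fold change as low or lower. MTHFD1L (25902), the synthetase that releases formate in mitochondria, had 48 and 28 tags, a ratio of 0.642 whose interval, 0.388 to 1.04, included 1. These are the only members with fewer than 100 tags in all, and neither counts toward the 3 of 7 above.

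MTHFD2 lies on the plus strand at chr2:74198562-74217565, with 7 named pseudogenes and exons that overlap those of SLC4A5 and AC006030.1 on the other strand. ALDH1L2 lies on the minus strand at chr12:105019784-105084577 and its exons overlap those of C12orf45. MTHFD1L lies on the plus strand at chr6:150865549-151101887, with no such overlap. SHMT2 lies on the plus strand at chr12:57229327-57234935, and its exons overlap those of NDUFA4L2 and AC137834.2. Whether the counting used strand is not given in the sources used here. The MTHFD2 window, chr2:74198365-74198664 on the plus strand, holds 1 match, to the NRF2 element, 6 bases after the start. Of 4 RefSeq windows of MTHFD1L, 3 overlap and share 1 ATF4 element and 1 E-box, and the other holds neither. The one printed, chr6:150866197-150866496 on the plus strand, has the E-box 115 bases and the ATF4 element 90 bases before the start. Among the 6 members with a window, MTHFD1L was the only one with an ATF4 element in it, and a link between motifs and tags was not tested.
MTHFD2: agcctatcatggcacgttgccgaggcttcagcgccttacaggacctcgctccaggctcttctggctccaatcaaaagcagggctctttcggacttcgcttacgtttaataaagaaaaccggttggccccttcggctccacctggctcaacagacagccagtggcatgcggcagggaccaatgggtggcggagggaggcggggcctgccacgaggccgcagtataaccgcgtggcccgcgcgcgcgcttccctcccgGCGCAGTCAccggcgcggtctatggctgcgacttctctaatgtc
MTHFD1L: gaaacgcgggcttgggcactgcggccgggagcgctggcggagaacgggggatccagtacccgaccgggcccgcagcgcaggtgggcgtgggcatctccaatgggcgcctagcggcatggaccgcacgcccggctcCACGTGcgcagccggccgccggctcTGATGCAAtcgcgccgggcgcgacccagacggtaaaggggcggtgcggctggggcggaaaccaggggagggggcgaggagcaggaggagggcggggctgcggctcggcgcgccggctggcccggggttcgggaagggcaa

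The cytosolic folate enzymes were level or slightly higher. SHMT1 (6470), the cytosolic counterpart of SHMT2, had 97 tags in shRNA-Con against 95 in the library labelled shRNA-SOX2, for a ratio of 1.08 (0.804 to 1.45). MTHFD1 (4522), which holds the dehydrogenase, cyclohydrolase and synthetase activities in a single protein, had 452 and 493 tags, a ratio of 1.2 (1.05 to 1.37; log2 fold change 0.26). The MTHFD1 ratio was above 1 under all 4 scalings, with log2 fold changes from 0.15 with clean tags to 0.34 with TMM factors. Its interval with gene tags starts at 0.08 on the log2 scale. Clean tags lower every gene by 0.11, so the interval then reaches past 0. Of all genes with at least 100 tags, 29.4% were as high as MTHFD1 or higher. Across the scalings SHMT1 and SHMT2 fell on either side of 0 (-0.0052 and -0.073 with clean tags). MTHFD1 lies on the plus strand at chr14:64388031-64463457, has 1 named pseudogene and shares exon sequence with ZBTB25 and with AL122035.1 and AL122035.2 on the other strand. SHMT1, on the minus strand at chr17:18327860-18363563, has 1 pseudogene too, and its exons overlap those of SMCR8. The MTHFD1 window, chr14:64388103-64388402 on the plus strand, is shown as that of a member that was not lower, and holds 1 E-box 15 bases before the start. That of SHMT1 holds none of the 3 motifs.
MTHFD1: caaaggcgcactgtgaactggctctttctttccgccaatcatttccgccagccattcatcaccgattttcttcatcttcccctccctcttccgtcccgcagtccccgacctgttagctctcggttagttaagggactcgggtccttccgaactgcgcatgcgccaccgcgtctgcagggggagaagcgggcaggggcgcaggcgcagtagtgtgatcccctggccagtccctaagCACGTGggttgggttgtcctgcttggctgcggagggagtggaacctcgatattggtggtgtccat

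**Figure D3:**
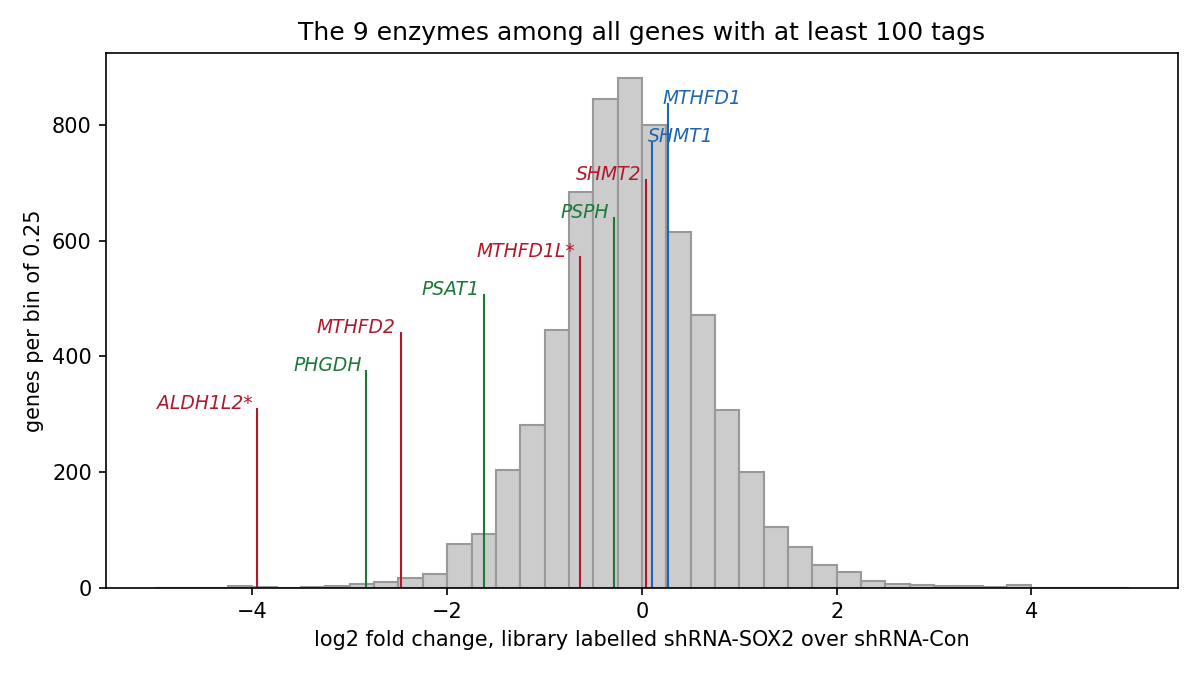
Log2 fold changes of the 6237 genes with at least 100 tags (grey bars, genes per bin of 0.25) with the 9 enzymes drawn as lines whose heights only separate the names; a star marks the 2 enzymes with fewer than 100 tags. ALDH1L2, PHGDH and MTHFD2 lie in the far lower tail and PSAT1 nearer to the bulk, where the other 5 enzymes lie.

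Set against each other by compartment, the 4 mitochondrial folate enzymes had 1090 tags in shRNA-Con against 357 in the library labelled shRNA-SOX2, 2.77-fold fewer after scaling (2.46 to 3.14). The tags of the cytosolic pair, SHMT1 and MTHFD1, gave a summed ratio of 1.18 (1.05 to 1.33). The mitochondrial share of the tags of these 6 genes went from 66.5% (64.2% to 68.8%) to 37.8% (34.7% to 41.0%). The sum rested on MTHFD2. Without it, the other 3 mitochondrial enzymes had 312 and 230 tags, a ratio of 0.811 (0.681 to 0.965), so the log2 fold change went from -1.47 to -0.30. On the log2 scale the interval without MTHFD2 ends at -0.05, and TMM factors raise every gene by 0.07, so it then reaches past 0. The interval of the cytosolic sum starts at 0.07, and with clean tags, which lower every gene by 0.11, it reaches past 0 too. By gene, the median log2 fold change was -1.56 over the 4 mitochondrial enzymes, which ranged from -3.95 to 0.04, and 0.19 over the cytosolic pair.

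The pairs that catalyse the same reactions in both compartments differed from each other. SHMT2 made up 68.7% (63.2% to 73.8%) of SHMT tags in shRNA-Con against 67.7% (62.0% to 73.0%) in the library labelled shRNA-SOX2, and the drop in SHMT2 per tag of SHMT1 was 1.05-fold with an interval of 0.733 to 1.5. For the dehydrogenase, cyclohydrolase and synthetase steps, MTHFD2 and MTHFD1L made up 64.6% (61.9% to 67.3%) of the tags of MTHFD1, MTHFD2 and MTHFD1L in shRNA-Con against 23.9% (20.7% to 27.4%) in the other library. MTHFD2 per tag of MTHFD1 dropped 6.68-fold (5.30 to 8.45). MTHFD1L per tag of MTHFD1 dropped 1.87-fold, with an interval of 1.13 to 3.15. Within the mitochondrial folate enzymes, MTHFD2 held 71.4% of the tags in shRNA-Con against 35.6% in the library labelled shRNA-SOX2, and SHMT2 19.5% and 55.7%. The deposited Gene Ontology columns could not sort the compartments, since they list the mitochondrion for SHMT1 and MTHFD1 and not for ALDH1L2, and the compartments used here are textbook ones.

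Lists of 51 further genes that use, carry or hand on serine, glycine and folate carbon were examined in the same way, of which 43 were in the table and 28 had at least 100 tags. Of these 28, 10 (35.7%) were at least 1.5-fold lower and 3 (10.7%) at least 1.5-fold higher, with a median log2 fold change of -0.40. Over all genes with that many tags the shares were 25.4% and 17.2% and the median was -0.13. The counts of the single lists below, each of few genes, stand beside these same shares.

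Among the other folate enzymes and carriers, 2 of 7 were lower, 2 were higher and 3 were within 1.5-fold. TYMS, thymidylate synthase, which takes its carbon from methylenetetrahydrofolate, had 227 tags in shRNA-Con against 436 in the library labelled shRNA-SOX2, and its log2 fold change was 1.08. TYMS was thus higher in the library in which MTHFD2 was lower. MTHFS, which brings 5-formyltetrahydrofolate back into the cycle, had 267 and 133 tags (log2 fold change -0.87), and SLC46A1, a folate carrier of the plasma membrane, 103 and 49 (log2 fold change -0.93). SLC25A32, the mitochondrial folate carrier, had 92 and 69 tags with an interval on the log2 scale of -0.75 to 0.19.

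In the methionine cycle and transsulfuration, 2 of 5 were lower and 1 was higher. CBS, which joins serine to homocysteine, had 142 tags in shRNA-Con against 40 in the library labelled shRNA-SOX2, and its log2 fold change was -1.69. AHCY, which releases homocysteine, had 487 and 225 tags (log2 fold change -0.98), while AHCYL1, a relative of AHCY that binds the inositol trisphosphate receptor, had 255 and 462 (1.0). MAT2A, which makes S-adenosylmethionine, had 534 and 494 (0.03).

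Of 10 purine synthesis genes, 3 were lower and 0 were higher, beside 25.4% and 17.2% of all genes with at least 100 tags. The lower 3 were ADSL (142 and 52 tags, log2 fold change -1.31), IMPDH2 (327 and 122, -1.28) and GART (170 and 102, -0.60). GART was only 1.51-fold lower, with an interval on the log2 scale of -0.97 to -0.24. TMM factors, which raise every gene by 0.07 on that scale, bring it within 1.5-fold. GART and ATIC are the enzymes of this pathway that take up formyl groups from folate. ATIC had 408 and 325 tags (-0.19), and its interval on the log2 scale, -0.40 to 0.02, included 0.

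Of 4 genes of serine and glycine use and transport, 3 were lower. SLC1A4, a carrier of serine and alanine at the plasma membrane, had 199 tags in shRNA-Con against 50 in the library labelled shRNA-SOX2, and its log2 fold change was -1.85. SLC1A5, a carrier of glutamine that also takes serine, had 1101 and 582 tags (log2 fold change -0.78), and SFXN1, which brings serine into mitochondria, 251 and 143 (-0.67). Of the glycine cleavage system, which strips a carbon from glycine in mitochondria, 2 genes had at least 100 tags and both were within 1.5-fold. GLDC, its decarboxylase, had 4 and 2 tags.

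The transcription factors known to raise these genes did not share 1 size of change. MYC had 542 tags in shRNA-Con against 125 in the library labelled shRNA-SOX2, and its log2 fold change was -1.98. NFE2L2, which encodes NRF2, had 225 and 100 tags (log2 fold change -1.03), and ATF4 had 824 and 548 (log2 fold change -0.45). Of the NRF2 targets listed for A549 cells, 4 were in the table, of which 0 were lower by 1.5-fold and 2 were higher. ALDH1A1 had 7035 and 14268 tags (log2 fold change 1.16), NQO1 4179 and 6200 (0.71) and AKR1B10 6039 and 4581 (-0.26). The part of any of these factors in the values of the 9 enzymes was not tested.

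**Figure D4:**
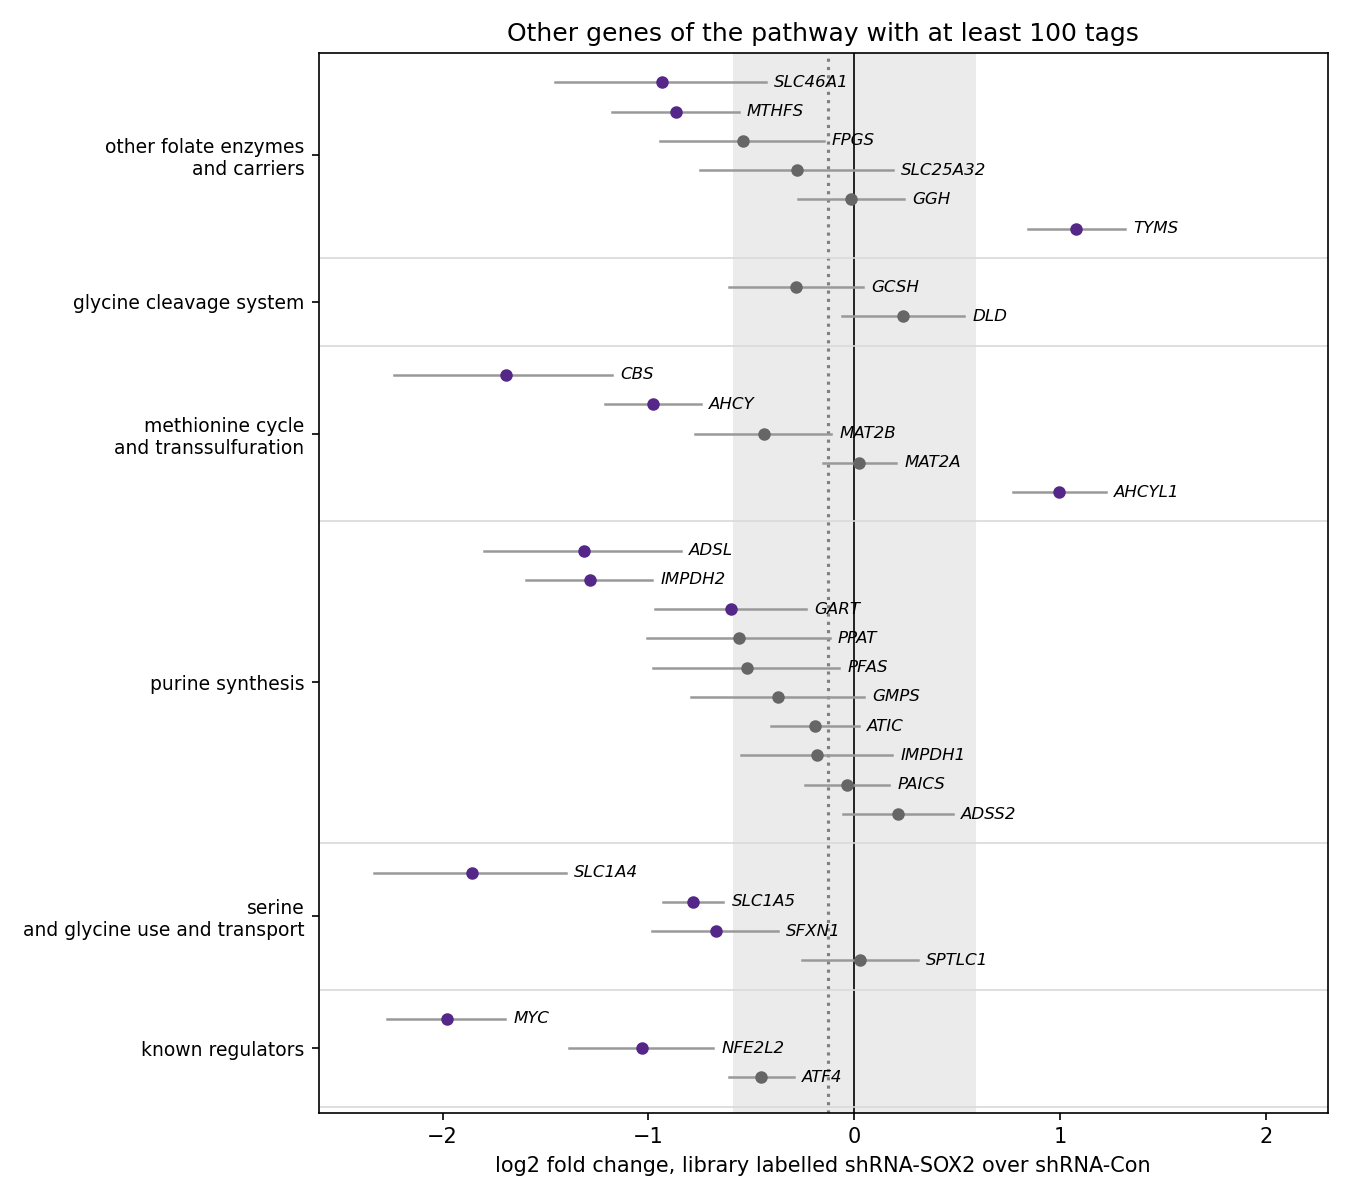
Log2 fold change of the other pathway genes reported here and of 3 known regulators with at least 100 tags (points, purple where at least 1.5-fold in size) with 95% intervals from counting error (lines); the grey band is within 1.5-fold and the dotted line is the median of all genes. SLC1A4, CBS and MYC lie farthest to the left, from -1.98 to -1.69, and TYMS (1.08) and AHCYL1 (1.0) lie to the right.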

How the data were processed

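Digital gene expression tags were counted per Entrez Gene ID for 1 A549 library with shRNA-SOX2 and 1 with shRNA-Con. The deposited counts were made from oligo(dT)-purified mRNA (4 µg of total RNA) at the Beijing Genomics Institute and are not normalized. The labels name the build hg19, while aligner, annotation, filters and the treatment of shared tags are not given in the sources used here. The authors' TPM scales each count to the clean tags of its library without division by length, and served only to recover the clean tags (3516266 for shRNA-Con and 3456234 for the other library), of which 65.5% and 60.6% lay on genes. Columns of the authors' own log2 ratio, p-values and FDR were not used.

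Counts were divided by the gene tags of each library. A gene counted as lower or higher when its fold change was at least 1.5 in size with at least 100 tags in all. Exact 95% intervals cover counting error only, and ratios between genes used the conditional odds ratio. The members, lists and limits were chosen with earlier results of these data known, and the rule for naming genes took all members, the list genes past 1.5-fold with at least 100 tags, 3 regulators and SOX2. ATIC, MAT2A, SLC25A32, GLDC and AKR1B10 fall outside it and were chosen after their values were seen, and the marker lists are given as checks of the cells. Some list genes are included in the counts and not reported here by name. Genes of the lists were matched by Entrez Gene ID through RefSeq (13086 of 13137 IDs matched). Alternatives were TMM factors, the median ratio, clean tags, 0.5 added to each count, other limits, Fisher's exact test (FDR by Benjamini and Hochberg, all genes), and edgeR's exact test with an assumed coefficient of variation of 0.2. A comparison of protein sequences was planned and not run. Steps were tested on data simulated with counting error only, which hold no spread between cultures. Python 3.11.15, scipy 1.17.1, R 4.3.3, edgeR 4.0.16 and DESeq2 1.42.0 were used.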

Additional observations from a re-analysis of the deposited data

How the results depend on the processing

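No paired analysis was possible because shRNA-SOX2 and shRNA-Con have 1 library each, which also prevents leaving one out. The log2 fold change of each of the 9 enzymes stayed within its counting interval under TMM factors, the median ratio, clean tags and 0.5 added to each count (36 of 36 values). The number of enzymes at least 1.5-fold lower, 3, was 5 with at least 20 tags and 5 with no filter on tags, since ALDH1L2 and MTHFD1L have fewer than 100 tags. It was 3 under each of the other scalings and at 2-fold, 4 by Fisher's exact test at FDR 0.001, and 3 by edgeR's exact test with an assumed coefficient of variation of 0.2, which kept PHGDH, MTHFD2 and ALDH1L2 and not PSAT1. The summed mitochondrial folate enzymes went from -1.47 to -0.30 on the log2 scale without MTHFD2. The summed cytosolic folate enzymes went from 0.24 to -0.96 when the serine synthesis enzymes, which are cytosolic too, were added, because PHGDH and PSAT1 were lower. Of the 28 other pathway genes with at least 100 tags, 4 in place of 10 were at least 2-fold lower, beside 11.4% of all genes. The number at least 1.5-fold lower was between 9 with TMM factors (1387 of all 6237 genes) and 13 with clean tags (1929 of them). Depth limits MTHFD1L, PSPH, SHMT1 and SHMT2, whose intervals with gene tags included a ratio of 1. The interval of MTHFD1 includes 1 too after the shift that clean tags bring. These libraries hold no replicate from which a spread between cultures could be taken.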
